A study of Mus musculus with 6 samples.

Results

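RNA of mouse embryonic fibroblasts (MEFs, mesenchymal cells grown out of mouse embryos) was sequenced, and 9 transcription factor genes of the bone-forming lineage are described here out of 26532 genes in the deposited table. The members, chosen by name, were Runx1, Runx2 and Runx3, their shared partner gene Cbfb, Sp7 (osterix), the homeobox genes Dlx3, Msx1 and Msx2, and Twist1. All 9 were found by their Entrez numbers. In 3 libraries, called ORAI2 here, the cells carried a recombinant adenovirus with ORAI2 and the genotype label is ORAI2 overexpression. In the other 3 libraries, called GFP, they carried an adenovirus named for green fluorescent protein and the genotype label is WT. The treatment label of all 6 libraries is osteogenic differentiation, their cell line label is MEFs and their cell type label is mesenchymal stem cells. The series title names BMP9, a bone morphogenetic protein, as the inducer, while the sample labels give no agent, dose, day of harvest, mouse strain or embryo age. ORAI2 belongs to the ORAI family, which forms store-operated calcium channels in the cell membrane, and the comparison of ORAI2 with GFP asks which genes differ when it is supplied.

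Osteoblasts arise from mesenchymal cells through a small set of transcription factors. RUNX2, a DNA-binding protein of the Runt family, commits cells to the lineage and acts as a heterodimer with CBFB, which binds no DNA itself and stabilises all 3 RUNX proteins on their sites. SP7, a zinc finger protein, is needed downstream of RUNX2 in mouse bone. The homeodomain proteins DLX3, MSX1 and MSX2 act in craniofacial and limb bone, where the DLX proteins mostly activate and the MSX proteins mostly repress transcription. TWIST1, a basic helix-loop-helix protein, restrains RUNX2 and holds mesenchymal cells in an early state. RUNX1 and RUNX3 are best known in blood cells and are also made in skeletal precursors.

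Among the 3 RUNX genes, Runx1 changed, while Runx2 and Runx3 did not pass the test. The regions at their upstream starts are shown as a description. Which annotated start these cells use was not tested. Each is the RefSeq window of build GRCm38.p6 from 250 bases before to 50 bases after an annotated start, read 5′ to 3′ on the strand of the gene. Capitals mark the letters TGTGGT or TGCGGT, the core of the RUNX binding motif, on either strand (ACCACA is TGTGGT on the opposite strand). The Runx1 window is chr16:92826025-92826324 (minus strand), the Runx2 window chr17:44814578-44814877 (minus strand) and the Runx3 window chr4:135120395-135120694 (plus strand).
Runx1: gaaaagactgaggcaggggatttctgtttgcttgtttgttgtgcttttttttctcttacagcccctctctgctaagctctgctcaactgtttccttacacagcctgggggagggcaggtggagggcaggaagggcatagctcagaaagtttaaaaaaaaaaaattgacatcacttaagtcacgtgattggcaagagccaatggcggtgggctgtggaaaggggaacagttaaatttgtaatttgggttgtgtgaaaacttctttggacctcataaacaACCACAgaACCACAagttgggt
Runx2: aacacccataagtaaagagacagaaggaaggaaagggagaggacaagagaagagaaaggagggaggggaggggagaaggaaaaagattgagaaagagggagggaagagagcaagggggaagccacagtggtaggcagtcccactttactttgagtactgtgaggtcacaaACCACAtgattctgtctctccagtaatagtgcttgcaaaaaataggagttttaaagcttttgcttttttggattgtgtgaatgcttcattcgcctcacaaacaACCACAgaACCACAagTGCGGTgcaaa
Runx3: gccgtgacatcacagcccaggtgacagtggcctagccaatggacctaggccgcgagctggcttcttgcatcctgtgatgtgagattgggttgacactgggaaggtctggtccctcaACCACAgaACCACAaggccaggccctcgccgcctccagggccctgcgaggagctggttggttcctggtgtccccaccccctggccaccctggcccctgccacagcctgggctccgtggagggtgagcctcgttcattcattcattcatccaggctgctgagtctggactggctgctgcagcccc
All 3 windows held a tandem pair of the motif inside the same run of 18 bases, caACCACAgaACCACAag, the longest run they share. This run lay in 4 of 32851 promoter windows in the table, or 0.0122%, those of Runx1, Runx2, Runx3 and the predicted gene Gm16225. A pair of TGTGGT motifs with 2 bases between them lay in 7 windows. In Runx1 the pair began 29 and 37 bases after the annotated start, in Runx2 24 and 32 bases after it, and in Runx3 134 and 126 bases before it. The Runx2 window held 4 matches in all, 3 of TGTGGT and 1 of TGCGGT, and the windows of Runx1 and Runx3 held 2 each. Either motif lay in 22.4% of all windows. The second annotated starts of Runx1 and Runx3 and the windows of Cbfb, Msx1, Msx2 and Twist1 held 0 matches. These 9 windows were all that were scanned, and Sp7 and Dlx3 had none among them. The homeodomain motif TAATTG was in 0 of the 9 windows, against 8% of all windows. The E-box CANNTG, the kind of site TWIST1 dimers bind, was in 72.3% of all windows. Among the members it was in the upstream Runx1 window, both Runx3 windows and the Runx2, Msx1 and Msx2 windows. Both E-boxes of the Runx2 window overlapped RUNX matches. The GC box GGGCGG, bound by SP family proteins, was in the windows of Cbfb, with 4 matches, Twist1, Msx1 and Msx2, in the second Runx3 window, and in 35.7% of all windows. A match is a description of letters, not a bound site.

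Total counts lay between 18526884 and 18700962 in the ORAI2 libraries and between 18582854 and 18844436 in the GFP libraries. Orai2 itself, the check of the labels, was at 2977 ± 623 CPM in ORAI2 and 50.2 ± 2.22 CPM in GFP (SD, n = 3 each), where CPM is the count scaled by the library total. Of 13764 genes tested with edgeR's quasi-likelihood test, 42.9% passed a Benjamini-Hochberg adjusted p of 0.05, 20.8% higher and 22.1% lower in ORAI2, and the groups did not overlap in 52.9%. Nothing in the labels ties the libraries to separate cultures or animals. The p-values therefore reflect the spread among these 6 libraries alone, and that spread may be technical.

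Of the 9 members, 7 had enough counts to be tested. Runx1 and Cbfb rose, Twist1 fell, and Runx2, Runx3, Msx1 and Msx2 did not pass the test. The 3 called members make 42.9% of the 7 tested, the same as the 42.9% over all tested genes. The median log2 fold change was -0.10 over the 7 tested members and -0.0018 over all tested genes. Sp7 and Dlx3 were under 10 counts in every library.

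**Figure D1:**
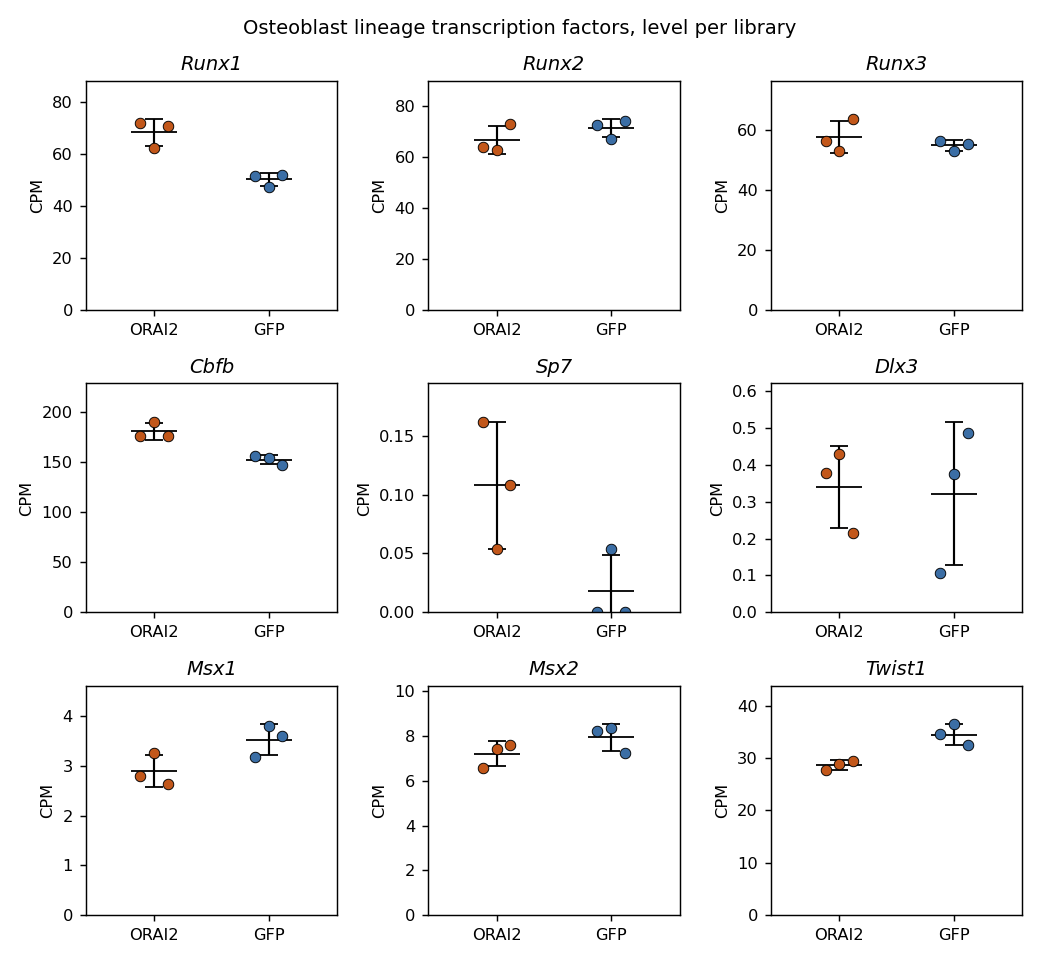
Level of the 9 members in CPM (y axis, from 0) in each library of the ORAI2 and GFP groups. Points are libraries in the order of their replicate number, and bars show the mean ± SD of 3 libraries. The groups are apart for Runx1, Cbfb and Twist1, and the Sp7 and Dlx3 values stay under 0.5 CPM.

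Runx1 (Entrez gene 12394), a regulator of blood formation that is also active in cartilage and bone precursors, was higher in ORAI2. Its level was 71.8, 62.5 and 70.8 CPM in the ORAI2 libraries, against 51.7, 47.4 and 52.0 CPM in the GFP libraries. The lowest ORAI2 library was above the highest GFP library. With means of 68.4 ± 5.10 CPM in ORAI2 and 50.4 ± 2.58 CPM in GFP (SD, n = 3 each), the gene rose 1.35-fold (edgeR adjusted p = 8.41e-05, with a log2 fold change of 0.44 and an SE of 0.06), and its absolute log2 fold change was at percentile 82.2 of all tested genes. Runx1 exons overlap those of the predicted opposite-strand gene Gm26626 in the GENCODE annotation, and the use of strand in counting is not given, so reads of the pair cannot be told apart.

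Cbfb (Entrez gene 12400) was the most abundant member in both groups. Its level was 175.8, 190.0 and 175.4 CPM in ORAI2, against 155.6, 153.8 and 147.0 CPM in GFP. The groups did not overlap, and the gene rose 1.18-fold, with means of 180.4 ± 8.32 CPM in ORAI2 and 152.1 ± 4.57 CPM in GFP (SD, n = 3 each). Its log2 fold change was 0.24 with an SE of 0.04, and edgeR gave an adjusted p of 5.57e-04. In size, this rise stood at percentile 61.9 of all tested genes.

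Twist1 (Entrez gene 22160) was lower in ORAI2. Its level was 27.7, 28.9 and 29.5 CPM in ORAI2, against 34.6, 36.5 and 32.4 CPM in GFP. Every ORAI2 library lay below every GFP library. The means were 28.7 ± 0.90 CPM in ORAI2 and 34.5 ± 2.01 CPM in GFP (SD, n = 3 each). The gene was 1.21-fold lower (edgeR adjusted p = 0.0032, with a log2 fold change of -0.27 and an SE of 0.06), which was percentile 65.9 in absolute size. The 3 calls held under every alternative setting and with any library left out.

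Runx2 (Entrez gene 12393), whose protein commits cells to the osteoblast lineage, was at 64.1, 62.9 and 73.0 CPM in ORAI2, against 72.6, 67.3 and 74.0 CPM in GFP. ORAI2 replicate 3 lay among the GFP libraries and the other two lay below all of them. The log2 fold change was -0.10 (95% interval -0.23 to 0.03, adjusted p = 0.200, edgeR). Without ORAI2 replicate 3 it was -0.17 and passed (adjusted p = 0.0288). Its exons overlap those of the opposite-strand gene Runx2os1, with which reads may be shared. The interval leaves room for a fall of up to 0.23 on the log2 scale and for a slight rise.

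Runx3 (Entrez gene 12399), known for its part in lymphocytes and in cartilage maturation, was at 56.6, 53.2 and 63.7 CPM in ORAI2, against 56.6, 53.0 and 55.6 CPM in GFP. The groups overlapped, and ORAI2 replicate 3 was again the highest of its group. The log2 fold change was 0.07 (95% interval -0.07 to 0.21, adjusted p = 0.416, edgeR), and it was -0.0032 without ORAI2 replicate 3. Of the 50-base runs in Runx3 transcripts, 1.11% also occur in transcripts of other genes, 315 of them. The level of Runx3 may hold some of their reads, depending on how shared reads were counted. The same limit holds for Runx2, Msx2 and Sp7, with 0.47%, 0.43% and 0.18% of runs shared with 4, 139 and 15 other genes. The remaining members shared no such run.

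Msx1 and Msx2, targets of bone morphogenetic protein signalling whose proteins repress transcription, were scarcer. Msx1 (Entrez gene 17701) was at 2.80, 3.26 and 2.64 CPM in ORAI2, against 3.18, 3.80 and 3.61 CPM in GFP, or 49 to 61 and 60 to 71 counts. ORAI2 replicate 2 lay above the lowest GFP library and the other two lay below all of GFP. Its log2 fold change was -0.28 (95% interval -0.63 to 0.06, adjusted p = 0.170, edgeR). This is as large as the change of Twist1 but has more than double the error, SE 0.16 against 0.06. Msx2 (Entrez gene 17702) was at 6.57, 7.43 and 7.61 CPM in ORAI2, against 8.23, 8.34 and 7.26 CPM in GFP, with a log2 fold change of -0.14 (95% interval -0.38 to 0.09, adjusted p = 0.306, edgeR). The Msx2 groups overlapped. Its log2 fold change ran from -0.21 to -0.077 when 1 library was left out, nearest to 0 without ORAI2 replicate 1.

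Sp7 (Entrez gene 170574) had 3, 1 and 2 counts in the ORAI2 libraries and 0, 1 and 0 counts in the GFP libraries. The sums of 6 and 1 give a ratio of 6.04 with an exact 95% interval from 0.73 to 278, which covers counting error only. A difference was therefore not detectable at this depth. Dlx3 (Entrez gene 13393), which acts in skin, tooth and bone, had 7, 8 and 4 counts in ORAI2 and 2, 7 and 9 counts in GFP. Its sums of 19 and 18 give a ratio of 1.06 (exact 95% interval 0.53 to 2.15). With no low-count filter edgeR gave adjusted p-values of 0.276 for Sp7 and 0.958 for Dlx3.

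**Figure D2:**
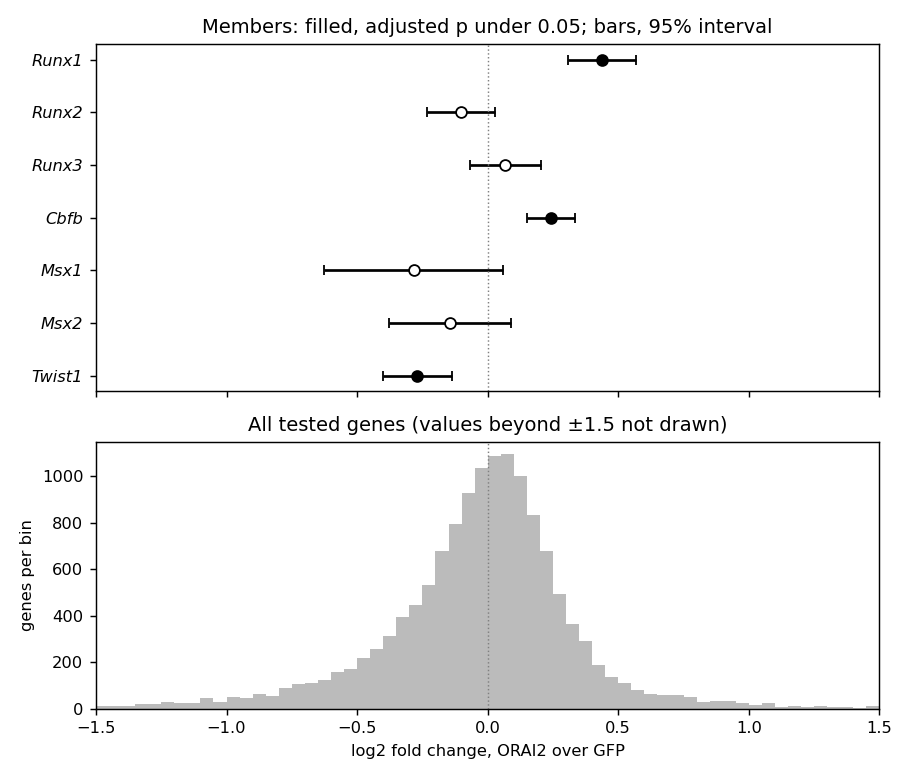
Upper panel, log2 fold change of ORAI2 over GFP (x axis) for the 7 tested members with 95% intervals, filled where the adjusted p is under 0.05. Lower panel, the number of tested genes in each bin of log2 fold change on the same axis. Runx1 and Cbfb lie right of 0 and Twist1 left of it, and the intervals of Runx2, Runx3, Msx1 and Msx2 cross 0.

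To set genes of different length side by side, CPM was divided by the length of the longest annotated protein-coding transcript in kilobases. On this scale the ORAI2 order was Cbfb at 62.4 ± 2.88, Twist1 at 17.6 ± 0.55, Runx3 at 14.9 ± 1.39, Runx1 at 11.7 ± 0.87, Runx2 at 10.3 ± 0.86, Msx2 at 2.94 ± 0.23, Msx1 at 1.5 ± 0.17, Dlx3 at 0.13 ± 0.04 and Sp7 at 0.035 ± 0.017 CPM per kilobase (SD, n = 3). The GFP order was the same except that Runx2, at 11.0 ± 0.55, stood above Runx1, at 8.59 ± 0.44 CPM per kilobase. The only neighbours whose library ranges overlapped were Runx1 and Runx2 in ORAI2. The order of the RUNX genes and Twist1 rests on the transcript length used. With the median length of the protein-coding transcripts, the GFP order was Cbfb, Runx2, Runx1, Twist1 and Runx3, at 54.4, 39.8, 25.4, 21.2 and 19.2 CPM per kilobase.

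**Figure D3:**
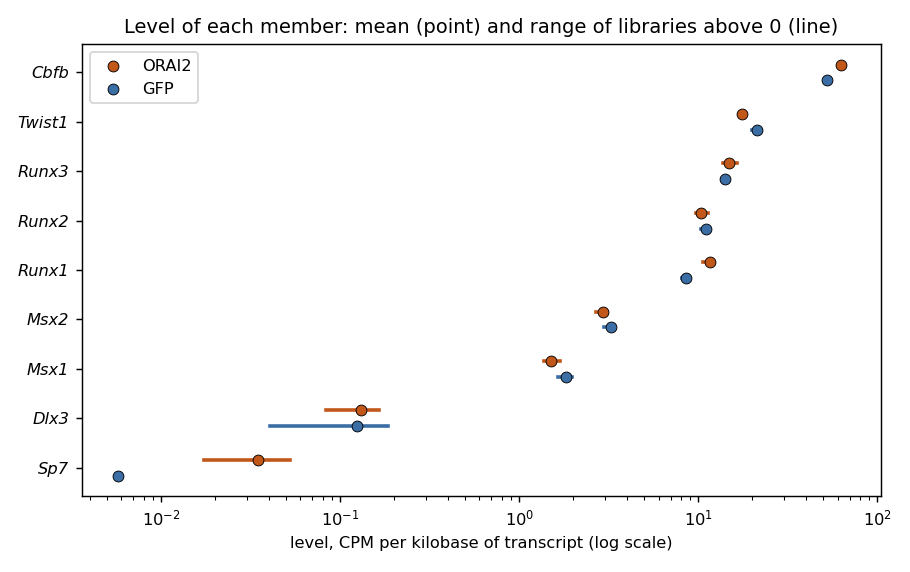
Level of each member in CPM per kilobase of its longest transcript (x axis, log scale) in the ORAI2 and GFP groups. Points are means of 3 libraries and lines span the libraries above 0, of which Sp7 had 1 in GFP. Cbfb is highest in both groups and Dlx3 and Sp7 are lowest.

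RUNX proteins bind the same motif, so the make-up of the RUNX RNA pool was compared within each library, which leaves out any scaling between libraries. These are shares of RNA, and protein was not measured here. By length-scaled counts, Runx1 made 33.4%, 31.3% and 30.3% of the summed RUNX level in the ORAI2 libraries, against 25.5%, 25.2% and 25.6% in the GFP libraries. Runx2 made 27.0%, 28.6% and 28.4% in ORAI2, against 32.5%, 32.4% and 33.1% in GFP. Runx3 made 39.7%, 40.2% and 41.25% in ORAI2, against 42.1%, 42.5% and 41.32% in GFP. The shares of a library are parts of the same sum, so a rise of Runx1 alone lowers the shares of Runx2 and Runx3. By level, neither Runx2 nor Runx3 passed (adjusted p = 0.200 and 0.416, edgeR). How much of the lower Runx2 share comes from Runx1 was not tested. The groups did not overlap in the Runx1 and Runx2 shares, with these lengths, the median lengths or undivided counts. For Runx3 they were apart with these lengths only, by less than the spread within a group. With undivided counts its share was 30.7% in ORAI2 replicate 3, against 30.6% in GFP replicate 3, and with median lengths it was 22.5% in ORAI2 replicate 3, against 22.3% in GFP replicate 3. Over those scales the Runx3 difference, ORAI2 minus GFP, was -1.20 and -0.82 percentage points (exact permutation p = 0.2 for each), against -1.59.

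The log2 ratio of Runx1 over Runx2, per length, was 0.18 ± 0.11 in ORAI2 and -0.36 ± 0.01 in GFP (SD, n = 3 each), a difference of 0.54. The ratio was above 0 in every ORAI2 library and below 0 in every GFP library. Its sign in ORAI2 depends on the lengths used, and with undivided counts it was 0.16, -0.0098 and -0.045 in the ORAI2 libraries. In GFP it stayed below 0 in every library with undivided counts and with median lengths. The difference between groups does not depend on the lengths. The exact two-sided permutation test gave p = 0.1 for each share by longest transcript and for this ratio, the smallest p that 3 against 3 libraries allow, so these comparisons cannot pass 0.05 (Benjamini-Hochberg adjusted p = 0.125 over 5 relations). The log2 ratio of Msx2 over Msx1 was 0.97 ± 0.18 in ORAI2 and 0.83 ± 0.18 in GFP, with overlapping groups (exact permutation p = 0.4, adjusted p = 0.4). Their difference of 0.14 lay between 0.037, without ORAI2 replicate 3, and 0.24, without GFP replicate 1, when 1 library was left out, and was 0.062 without GFP replicate 3.

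**Figure D4:**
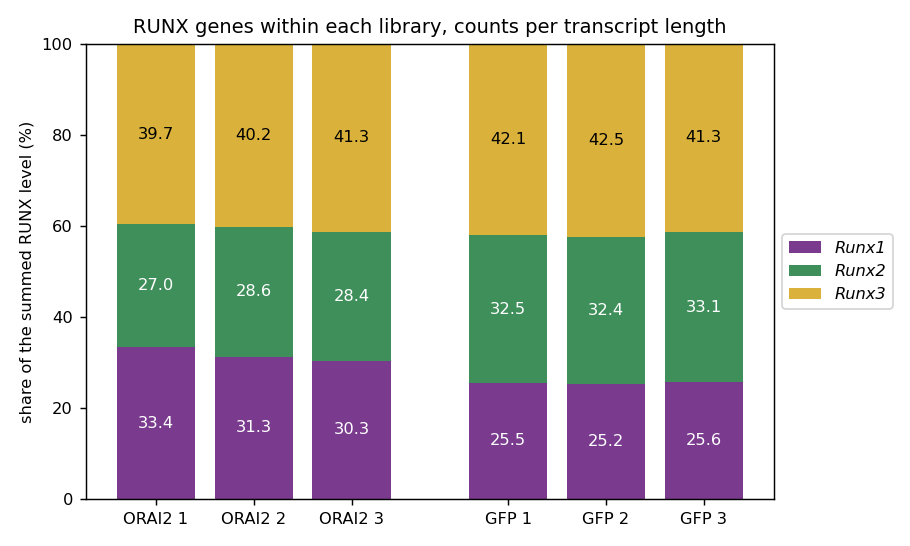
Share of Runx1, Runx2 and Runx3 in the summed RUNX level of each library (y axis, percent of counts per transcript length), with 3 ORAI2 and 3 GFP libraries along the x axis. With the longest transcript as the length, Runx1 is the larger of Runx1 and Runx2 in each ORAI2 library and the smaller in each GFP library.

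Genes whose proteins act on the RUNX proteins were taken from a list of 28, of which 25 were tested. Of these, 4 rose, 11 fell and 10 did not pass, with a median log2 fold change of -0.03. The called share was 60%, against 42.9% of all tested genes. Among those that rose were Smurf1 and Smurf2, genes for ubiquitin ligases that mark RUNX2 and SMAD proteins for breakdown, and the Groucho corepressor gene Tle1. Smurf1 was at 196 ± 8.09 CPM in ORAI2 and 163 ± 8.43 CPM in GFP (SD, n = 3; adjusted p = 5.87e-04, edgeR). The log2 fold change was 0.26 for Smurf1, 0.15 for Smurf2 and 0.27 for Tle1.

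Several genes of that list fell. Runx1t1, a corepressor gene known in human leukaemia as a fusion partner of RUNX1, was at 18.86 ± 1.63 CPM in ORAI2 and 27.0 ± 1.00 CPM in GFP (log2 fold change -0.52). Zfp521, which encodes a zinc finger antagonist of RUNX2, fell (log2 fold change -0.55), as did the corepressor gene Tle2 (-0.74). The histone deacetylase genes Hdac5 and Hdac7 fell with log2 fold changes of -0.43 and -0.26. Kat6b, which encodes an acetyltransferase that serves as a RUNX coactivator, fell with a log2 fold change of -0.45. Kat6a and Hdac4 fell as well. Sin3a and Tle3 were called lower with log2 fold changes of -0.17 and -0.16. The Sin3a call was lost without ORAI2 replicate 2 or 3 or GFP replicate 1, and that of Tle3, whose groups overlapped, in 7 of 16 alternative settings, among them those without ORAI2 replicate 1 or 3 or GFP replicate 2 or 3. Activators and repressors of RUNX proteins were both among the genes that fell.

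Other transcription factors of the osteoblast lineage moved both ways. Of 24 listed, 18 were tested, 4 rose, 5 fell and 9 did not pass, with a median log2 fold change of -0.13. The called share was 50%, against 42.9% of all tested genes. Etv1, Foxc2 and Atf4 rose with log2 fold changes of 0.66, 0.38 and 0.09. Foxc1, a forkhead gene of skull bone, fell to 71.0 ± 7.32 CPM in ORAI2, against 128 ± 12.7 CPM in GFP (1.80-fold lower, adjusted p = 1.98e-06, edgeR). Its relative Foxc2 was among the 4 that rose. The others that fell were Xbp1, Mef2c, Osr1 and Nr4a1, with log2 fold changes of -0.33, -1.197, -0.16 and -0.24. Without 1 library the calls of Atf4, Osr1 and Nr4a1 were lost in 4, 3 and 4 of the 6 fits. Of 9 relatives of the Dlx and Msx genes listed, 3 were tested, 1 rose and 2 did not pass, with a median log2 fold change of 0.23 and a called share of 33.3%, against 42.9% of all tested genes. Dlx2, a homeobox gene of the jaw, rose to 8.52 ± 0.42 CPM in ORAI2, against 6.38 ± 0.38 CPM in GFP (adjusted p = 0.0051, edgeR), while Dlx1 stood at 0.23 and Dlx4 at -0.51 on the log2 fold change scale.

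Among 20 listed genes of mesenchymal identity or linked to TWIST1, 13 were tested, 2 rose, 6 fell and 5 did not pass. Their median log2 fold change was -0.14 and their called share 61.5%, against 42.9% of all tested genes. Twist2, the close relative of Twist1, rose while Twist1 fell. Twist2 was at 78.1 ± 7.17 CPM in ORAI2 and 58.0 ± 1.12 CPM in GFP (1.34-fold, adjusted p = 1.19e-04, edgeR). The 3 genes for E proteins, with which TWIST1 forms dimers, all fell. Tcf4 was 1.46-fold lower, at 104 ± 1.99 CPM in ORAI2 and 152 ± 0.20 CPM in GFP (adjusted p = 1.43e-07, edgeR), and Tcf3 and Tcf12 fell with log2 fold changes of -0.19 and -0.14. Of the Id genes, whose proteins sequester E proteins, Id1 rose (log2 fold change 0.51) and Id3 fell (-0.32), and for Id2 the value was 0.12, which did not pass (adjusted p = 0.343, edgeR). Prrx1, a homeobox gene of limb and skull mesenchyme, fell to 260 ± 10.8 CPM in ORAI2, against 342 ± 4.93 CPM in GFP (1.32-fold lower, adjusted p = 5.09e-06, edgeR), and Prrx2 fell with a log2 fold change of -0.35.

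Genes known as targets of RUNX2 or SP7 were counted last. Of 26 listed, 17 were tested, 4 rose, 7 fell and 6 did not pass, with a median log2 fold change of -0.17. The called share was 64.7%, against 42.9% of all tested genes. Whether these changes came through RUNX2 or SP7 was not tested. Col5a1, which encodes a chain of type V collagen, was 1.65-fold lower, at 134 ± 4.4 CPM in ORAI2 and 221 ± 6.55 CPM in GFP (adjusted p = 4.15e-08, edgeR). Col1a1 of type I collagen fell to 486 ± 17.8 CPM in ORAI2, against 1257 ± 36.8 CPM in GFP. Col1a2 was 3.01-fold lower, at a much lower level of 4.50 ± 0.51 CPM in ORAI2 and 13.5 ± 1.48 CPM in GFP. Mmp13, a collagenase gene of maturing bone and cartilage, rose to 910 ± 83.6 CPM in ORAI2, against 621 ± 97.8 CPM in GFP (1.46-fold, adjusted p = 5.70e-04, edgeR). Spp1 (osteopontin), a bone matrix gene that many other cells also express, was abundant, at 545 ± 54.5 CPM in ORAI2 and 610 ± 68.4 CPM in GFP, and did not pass (log2 fold change -0.17, adjusted p = 0.116, edgeR). Phospho1, which encodes a phosphatase of mineralisation, was at 4.86 ± 0.15 CPM in ORAI2 and 6.59 ± 1.23 CPM in GFP. It was called lower (adjusted p = 0.0254, edgeR), a call lost without ORAI2 replicate 1 or 3 or GFP replicate 1 or 3. Bglap, Bglap2, Ihh, Pth1r, Ifitm5 and Sost were under 10 counts in every library. Alpl, the alkaline phosphatase gene, was at 0.72 ± 0.27 CPM in ORAI2 and 0.50 ± 0.19 CPM in GFP (adjusted p = 0.319, edgeR).

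**Figure D5:**
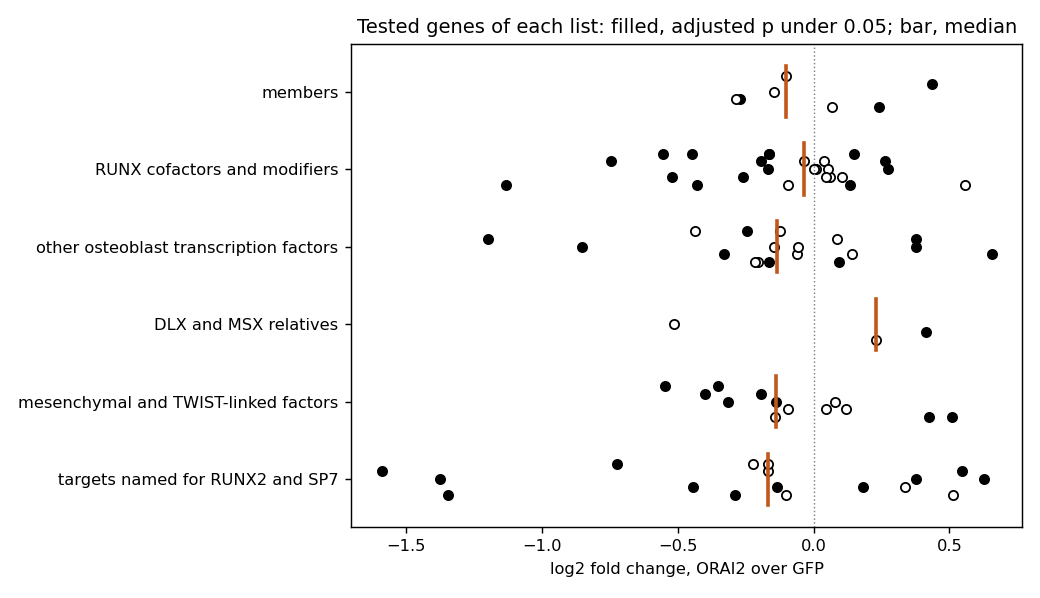
Log2 fold change of ORAI2 over GFP (x axis) for each tested gene of the 6 lists, with points filled where the adjusted p is under 0.05 and a bar at the median. Each list except the Dlx and Msx relatives holds called genes on both sides of 0.

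The cell type label was compared with marker genes. Of 14 fibroblast and mesenchymal stem cell markers, 12 were tested, 1 rose and 9 fell. The called share was 83.3%, against 42.9% of all tested genes. The 1 that rose was Cd44, a call lost without ORAI2 replicate 1. Pdgfrb was 1.66-fold lower, at 110 ± 3.44 CPM in ORAI2 and 182 ± 3.20 CPM in GFP, and Ly6a was 1.94-fold lower (adjusted p = 3.08e-08 and 2.12e-07, edgeR). The most abundant, Fn1, was at 5177 ± 250 CPM in ORAI2 and 5780 ± 317 CPM in GFP. Thy1 was under 10 counts in every library. The summed level of these markers lay between 7206 and 7705 CPM in ORAI2 and between 8092 and 8633 CPM in GFP. Their part in the changes of Twist1 and Prrx1 was not tested, and in bulk RNA fewer cells of a type and less RNA per cell cannot be told apart.

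Blood cells express Runx1 and Runx3 strongly. Of 14 blood cell markers in the table, 11 were under 10 counts in every library. Ptprc, the pan-leukocyte gene, had 1, 2 and 0 counts in ORAI2 and 1, 1 and 1 counts in GFP. The summed blood marker level was 21.8 to 23.7 CPM in ORAI2 and 26.2 to 31.2 CPM in GFP, and it came mainly from Cd34 and Mpeg1. Mpeg1 fell (log2 fold change -1.72), and Cd34 rose (0.23) with an adjusted p of 0.0494 in edgeR, a call lost in 10 of 16 alternative settings. For Dlx3, a gene of skin, the epithelial markers Krt5 and Krt14 had at most 1 count in a library and Epcam had 0 counts in all of them. The summed epithelial level was 8.95 to 10.4 CPM in ORAI2 and 10.5 to 11.5 CPM in GFP. Trp63 was lower and Grhl2 higher in ORAI2 (log2 fold changes -2.54 and 2.23), both at low levels. Trp63 was at 0.63 ± 0.31 CPM in ORAI2 and 3.67 ± 0.70 CPM in GFP, and Grhl2 at 2.37 ± 0.65 CPM in ORAI2 and 0.50 ± 0.19 CPM in GFP. Krt10, the most abundant in ORAI2, was at 3.53 ± 0.78 CPM there and 3.00 ± 0.67 CPM in GFP. Endothelial markers summed to 17.2 to 18.1 CPM in ORAI2 and 7.70 to 10.7 CPM in GFP, with Vwf and Kdr 2.76-fold and 2.01-fold higher and Erg lower, a call of Erg that was lost without ORAI2 replicate 3 or GFP replicate 1. Pecam1, Cdh5, Tek and Emcn were under 10 counts in every library. Neural markers summed to 164 to 176 CPM in ORAI2 and 133 to 145 CPM in GFP, led by Nes, which rose (log2 fold change 0.32), while Mbp fell (-0.85). Chondrocyte markers summed to 32.7 to 35.1 CPM in ORAI2 and 36.2 to 37.6 CPM in GFP, with Col11a1 lower (log2 fold change -1.18) and Sox9 higher (0.26), a call lost in 5 of 16 settings. Adipocyte markers lay at 47.6 to 54.2 CPM in ORAI2 and 49.4 to 56.1 CPM in GFP, with Pparg higher (log2 fold change 0.94). Fabp4, the most abundant of them, was at 41.4 ± 4.67 CPM in ORAI2 and 47.8 ± 4.12 CPM in GFP and did not pass (log2 fold change -0.21, adjusted p = 0.0501, edgeR), but passed without ORAI2 replicate 3 or GFP replicate 2. Skeletal muscle markers summed to at most 1.02 CPM in every library, and Des, the single gene tested, did not pass. The part of these other cell types in the changes of the members was not tested.

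The genes whose log2 CPM followed the called members most closely over the 6 libraries are given as a description. The profile of Runx1 was nearest to those of Ahctf1, Pias2 and Xpo5, with Pearson r of 0.997, 0.996 and 0.995. That of Cbfb was nearest to Pmaip1, Mtpn and Nme2 (r = 0.997 for the first), and that of Twist1 to Gpr108, Calr and Psma4 (r = 0.996 for the first). For the uncalled members the nearest genes were Thap11, Lrch2 and Tfcp2 for Runx2 (r = 0.980 for the first), Jmjd4, Ppm1d and Cyld for Runx3 (r = 0.963 for the first), Bhlhe40, Ube2m and Rad52 for Msx1 (r = 0.989 for the first), and Nit2, Csnk1g2 and Diaph2 for Msx2 (r = 0.988 for the first). With 6 libraries in 2 groups, such values mostly restate the group difference for the called members and the scatter between libraries for the others.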

How the data were processed

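The authors deposited 1 table with whole-number counts per gene, per the file headers, and TPM values in columns that, per the file headers, bear the same library names. Build GRCm39 and the tools Salmon 1.4.0 and HISAT2 2.0.4 appear, with no role, in the submitters' processing notes. Annotation and strand use were not given in the sources used here. As stated per the labels' protocols, mRNA was selected on oligo(dT) beads and cDNA primed with random hexamers. The 6 deposited TPM columns went against the counts of the same library name (Orai2 had 36.33 TPM in the column named for ORAI2 replicate 3, where its count was 45140), so they entered no result. Symbols came from the RefSeq gene table of GRCm38.p6, which matched 25631 of 26532 Entrez numbers (96.6%), transcript lengths and overlaps from GENCODE vM21, and promoter windows from RefSeq.

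Counts were tested with edgeR 4.0.16 in R 4.3.3 (glmQLFit, glmQLFTest, TMM scaling, filterByExpr with a minimum count of 10, group as the only term), after a check on simulated data, with Benjamini-Hochberg adjustment over all 13764 tested genes. Standard errors are the log2 fold change divided by the root of the F statistic. Levels are CPM without TMM scaling. Alternatives were other scalings, filters, tools (DESeq2 1.42.0, limma 3.58.1 voom, a robust fit), a replicate block, thinning and leaving out each library. Shares were compared with exact permutation tests (scipy 1.17.1). Members, lists and the naming rule (per list up to 4 called genes by p and up to 4 more with groups apart at 5 CPM or more; per marker list 2 called genes and the most abundant; per member the 3 nearest profiles at 5 CPM or more) were chosen with earlier results of these data known; further genes, named to complete short counts, were chosen after their values were seen. The lists were drawn up from general knowledge. A few listed genes are counted but not reported here by name. Listed genes without a row in the table were not analysed here, and the protein comparison planned at the outset was not made.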

Additional observations from a re-analysis of the deposited data

How the results depend on the processing

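The calls of Runx1, Cbfb and Twist1 held in all 10 other settings and all 6 fits without 1 library. Without 1 library the log2 fold change ran from 0.39 to 0.50 for Runx1, from 0.21 to 0.27 for Cbfb and from -0.32 to -0.23 for Twist1. That of Runx2 ran from -0.17 to -0.054, and it passed only without ORAI2 replicate 3, which made the count of members called lower 2 in place of 1 (range 1 to 2); the log2 fold change of Runx3 (0.131 at most without 1 library) was then -0.0032, the only reversal among all results and settings. The cause was not tested. Without 1 library, Msx1 ran from -0.37 to -0.22 and Msx2 from -0.21 to -0.077, and neither passed. Msx1 was removed by the filter at 5 CPM and has no value there. DESeq2 gave 2379 higher and 2446 lower calls over all genes, and called 3 other osteoblast factors and 4 RUNX2 and SP7 targets lower. Without 1 library these counts ran from 3 to 5 and from 4 to 6. For marker lists, the blood count called higher was 0 in place of 1 with upper quartile scaling, no low-count filter, the replicate block, thinning and DESeq2 (0 to 1 without 1 library), and the adipocyte count called lower was 1 in place of 0 with upper quartile scaling, no filter, the 5 CPM filter, the replicate block and thinning (0 to 1). The 5 CPM filter, which removes scarce genes, left 0 epithelial genes called in either direction and 0 endothelial and 0 neural genes called lower, and DESeq2 left 0 chondrocyte genes called higher. Without 1 library the fibroblast count called higher ran from 0 to 1, the endothelial lower from 0 to 1, the neural lower from 1 to 2 and the chondrocyte higher from 0 to 1. The Runx2 share of the RUNX level differed by -4.66 percentage points (ORAI2 minus GFP), by -5.78 with counts not divided by length and by -6.65 with the median transcript length, an alternative chosen after seeing the data. Limited to the 250 bases before the start, the Runx1 window held 0 RUNX matches and the Runx2 window 1.

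The replicate numbers are shared between groups. Deviations from the group means correlated at 0.136, 0.0735 and 0.126 for libraries with the same number, and every library correlated best with its own number, a hint from the data and not the design. The replicate block gave 3048 higher and 3198 lower calls, against 2869 and 3040 without it, and changed no member's call.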
